A study of Mus musculus with 8 samples.

Results

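The genes described here encode polycomb repressive complex 2 (PRC2), and they were measured in mouse embryonic fibroblasts with and without Cbx2, a chromodomain subunit of the partner complex PRC1. They are the 10 genes of the deposited expression table with the symbols Ezh1, Ezh2, Eed, Suz12, Rbbp4, Jarid2, Aebp2, Mtf2, Phf1 and Phf19, out of 17441 genes in the table. Primary fibroblasts (MEFs) were prepared from embryos of embryonic day 18 and used at passage 2. One group came from wild-type littermates and the other from Cbx2-/- embryos, which carry a targeted deletion of Cbx2, and no other allele or agent is named. For RNA there were 2 sequencing libraries per genotype, each made from 200000 cells. The labels do not tell libraries of separate embryos from repeats of one culture, so the p-values measure the spread between these libraries, which may be technical. Accessibility libraries of the same cells are not analysed here.

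PRC2 places methyl groups on lysine 27 of histone H3 (H3K27), and the fully methylated form marks silent developmental genes. The catalytic subunit is either EZH2, which is typical of dividing cells, or EZH1, which persists in resting cells, and it is active only when joined to EED and SUZ12, with RBBP4 or RBBP7 as a histone-binding subunit. Accessory proteins divide the complex into 2 main forms, PRC2.1 with one of the Polycomb-like proteins PHF1, MTF2 and PHF19, and PRC2.2 with JARID2 and AEBP2. CBX proteins of canonical PRC1 bind the mark that PRC2 makes.

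The promoters of 4 members are shown first, because Jarid2, Phf1 and Phf19 gave the largest differences in transcript level among the 10 members and Ezh2 is the main catalytic subunit. Each sequence is read 5′ to 3′ on the strand of the gene and spans the 250 bases before the annotated start and 20 bases after it (RefSeq, GRCm38.p6). Capitals mark matches on either strand to the E2F motif, searched as TTTCCCGC, TTTCGCGC, TTTGCCGC and TTTGGCGC, or to CCAAT.
Jarid2 (chr13:44730524-44730793, plus strand): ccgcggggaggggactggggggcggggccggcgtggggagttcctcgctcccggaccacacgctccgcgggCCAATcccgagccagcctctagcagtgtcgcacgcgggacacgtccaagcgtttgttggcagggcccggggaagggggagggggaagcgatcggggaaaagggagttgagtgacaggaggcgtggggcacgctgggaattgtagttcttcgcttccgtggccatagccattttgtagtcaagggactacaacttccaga
Phf1 (chr17:26932877-26933146, plus strand): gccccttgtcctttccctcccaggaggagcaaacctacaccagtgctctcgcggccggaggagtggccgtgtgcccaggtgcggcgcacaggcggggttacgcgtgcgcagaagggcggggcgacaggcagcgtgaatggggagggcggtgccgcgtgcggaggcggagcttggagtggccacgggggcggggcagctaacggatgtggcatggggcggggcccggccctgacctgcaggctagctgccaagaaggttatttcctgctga
Phf19 (chr2:34913957-34914226, minus strand): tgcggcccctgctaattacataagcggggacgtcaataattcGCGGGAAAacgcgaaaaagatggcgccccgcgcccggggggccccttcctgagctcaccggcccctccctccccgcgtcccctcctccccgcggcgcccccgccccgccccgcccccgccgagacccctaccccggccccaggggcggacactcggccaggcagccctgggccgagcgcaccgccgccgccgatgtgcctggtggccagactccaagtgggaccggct
Ezh2 (chr6:47595011-47595280, minus strand): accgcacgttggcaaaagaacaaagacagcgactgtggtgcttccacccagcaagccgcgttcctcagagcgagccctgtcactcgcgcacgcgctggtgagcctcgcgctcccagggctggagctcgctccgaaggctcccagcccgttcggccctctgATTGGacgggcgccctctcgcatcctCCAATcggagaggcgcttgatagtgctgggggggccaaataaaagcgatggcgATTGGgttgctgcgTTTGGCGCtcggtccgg
The Ezh2 window holds TTTGGCGC 3 bases after the start and CCAAT at 90, 64 and 11 bases before it. That start lies 240 bases inside the annotated gene. The Phf19 window holds TTTCCCGC on the opposite strand, 208 bases before a start that lies 377 bases inside the annotated gene. Of the 10 members, 3 had an E2F match in the window nearest their 5′ end (Ezh2, Phf19 and Suz12), against 2.02% of all 32851 windows of this length and 3.11% of the 17087 windows of genes in the expression table. CCAAT was found for 4 members (Ezh2, Jarid2, Rbbp4 and Suz12), against 35.4% of all windows. The Phf1 window held neither motif. These matches describe the sequence and are not evidence of a factor at the site.

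The authors' deposited table gives 1 normalised value per genotype, and whole reads of the 4 libraries were worked back from it for 16432 genes, including all 10 members. Recovered reads summed to between 8238893 and 8976241 in libraries A, B and C and to 8981534 in library D, where A and B are wild type and C and D knockout, with no known order within a genotype. Cbx2 itself had 324 and 355 reads in the wild-type libraries against 27 and 25 in the knockout libraries, so the genotypes followed their labels. All 16 fibroblast markers on the list used were present in both genotypes. Values of the members below are reads divided by the library's size factor (normalised reads), and levels are compared between genes only after division by transcript length (normalised reads per kb).

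One PRC2 gene, Jarid2, rose in the Cbx2 knockout, and 0 fell, by the authors' DESeq2 test at an adjusted p under 0.05. Its difference was smaller than that of Phf19, which was lower in knockout, and larger than that of Phf1, which was higher, and neither of those passed. The other 7 members differed by less than 1.1-fold. By this test 7.78% of all genes passed, 3.48% upward and 4.3% downward, so 1 of 10 is close to the background. At an unadjusted p under 0.05, 3 of 10 members (Jarid2 and Phf1 higher, Phf19 lower) stood against 14.6% of all genes. By limma on recovered reads the same 3 members passed an adjusted p of 0.05, against 24.1% of the 12025 genes tested, and without a filter on low reads 3 members passed against 14.1% of genes. The median deposited log2 fold change was -0.03 over the members and 0.0036 over all genes, and its median size without sign was 0.06 over the members, 0.12 over all genes and 0.09 over the 8949 genes whose mean lay in the members' range.

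**Figure D1:**
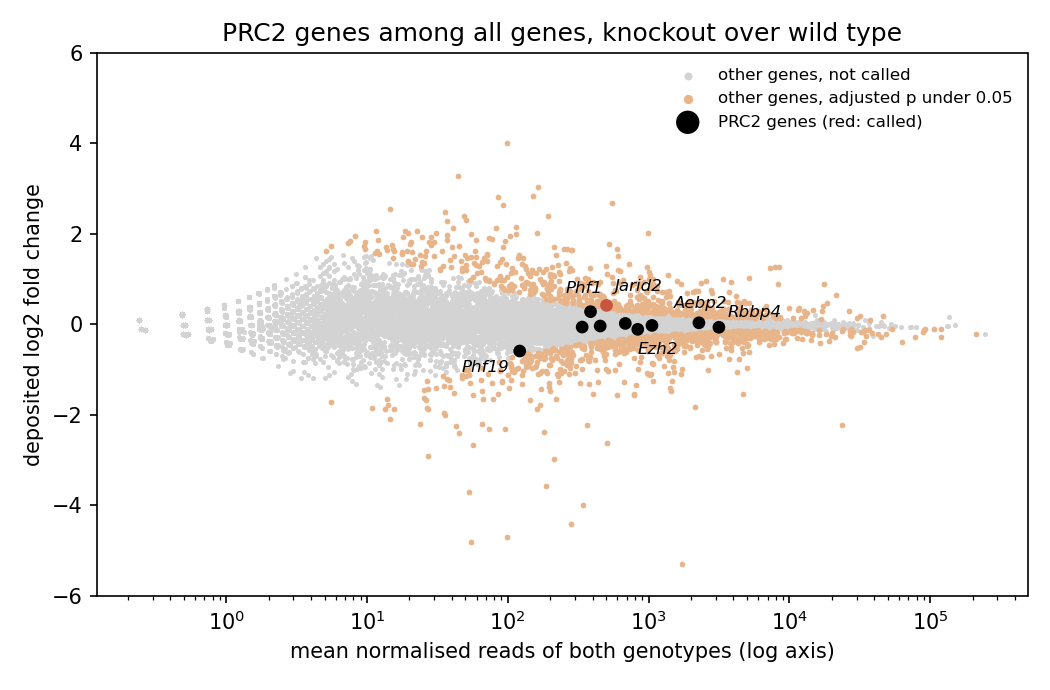
Deposited log2 fold change of knockout over wild type (vertical) against the mean normalised value of both genotypes (horizontal, log axis) for all genes in grey or orange and for the 10 PRC2 genes in black or red. Jarid2 at 0.42 is the single red point, and Phf19 at -0.59 is the lowest PRC2 gene.

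The levels spanned a wide range and kept their order in nearly every library. Rbbp4 was highest, at 684.6 to 735.7 normalised reads per kb over the 4 libraries, a level that is higher than that of 88.2% of the table's genes. It was followed by Aebp2 (421.8 to 442.7), Eed (325.9 to 339.4), Ezh2 (276.3 to 328.6), Suz12 (229.6 to 250.1), Phf1 (139.9 to 174.3) and Mtf2 (100.1 to 108.1), all per kb. The lowest were Jarid2 (70.1 to 99.2), Ezh1 (76.9 to 82.2) and Phf19 (25.1 to 42.3), with Phf19 at the 39.3 percentile of all genes. Ranges of neighbours in this order were separate except for 2 pairs. Eed was above Ezh2 in 3 of 4 libraries, and Jarid2 was above Ezh1 in 2 of 4, the knockout libraries C and D, and below it in A and B.

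**Figure D2:**
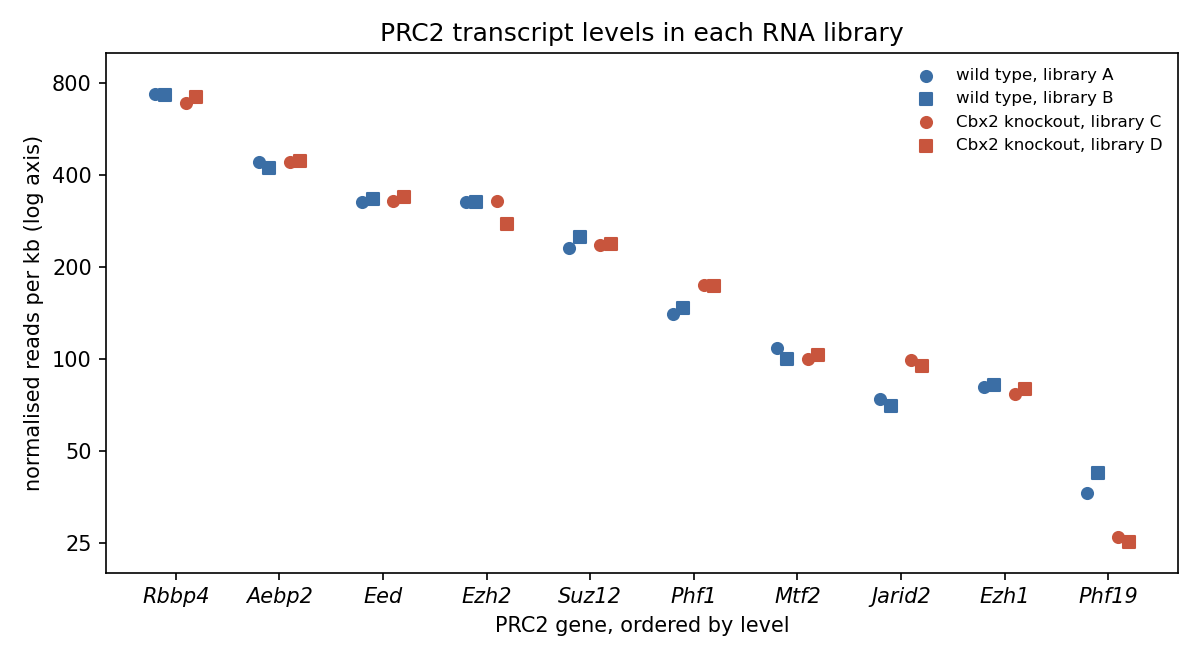
Normalised reads per kb of transcript (log axis) of the 10 PRC2 genes, with 1 point per library, blue for wild type and red for Cbx2 knockout. The red points of Jarid2 and Phf1 lie above the blue ones and those of Phf19 below, while Ezh2 has 1 low knockout library.

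Of the catalytic subunits, neither changed detectably. Ezh2 (gene 14056, chr6:47530274-47595270 in GRCm38.p6) had 869.9 and 870.2 normalised reads in the wild-type libraries and 875.4 and 736.1 in the knockout libraries. The wild-type libraries were within 0.0411% of each other, whereas library C matched them and library D was the one low value, so the groups overlapped. Its deposited log2 fold change was -0.11 (SE 0.10, 95% interval -0.31 to 0.10), with an adjusted p of 0.877 in the authors' DESeq2 comparison. The knockout difference rested on library D: limma gave 0.0088 without it and -0.24 without library C (limma adjusted p = 0.0359), and the adjusted p ranged from 0.0359 to 1 over the alternatives tried. Ezh1 (gene 14055, chr11:101191115-101226463) had 341.6 and 347.4 normalised reads in the wild-type libraries against 325.0 and 335.6 in the knockout libraries. Both knockout values were lower, by a log2 fold change of -0.06 (SE 0.14, 95% interval -0.34 to 0.22; authors' DESeq2 adjusted p = 0.956).

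The balance of the 2 enzymes was also compared directly. Per kb, Ezh2 stood at 4.04 and 3.97 times Ezh1 in the wild-type libraries against 4.27 and 3.48 times in the knockout libraries, and so made up 77.7% to 81.0% of their sum in the 4 libraries. The knockout ratios lay on both sides of the wild-type ones. The log2 fold change of Ezh2 minus that of Ezh1 was -0.05 (SE 0.18, 95% interval -0.40 to 0.30, with the genes taken as independent). From the read ratios of the libraries it was -0.055 (two-sided exact permutation p = 1, where 2 libraries against 2 cannot go below 0.333), and its sign rested on library D: it was 0.093 without D and -0.2 without C.

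The remaining core subunits stayed near their wild-type levels. Eed (gene 13626, chr7:89954654-89980976), which binds methylated H3K27 and activates the enzyme, had 671.3 and 686.3 normalised reads in the wild-type libraries against 677.1 and 699.2 in the knockout libraries. Suz12 (gene 52615, chr11:79993106-80034123), the scaffold on which the accessory subunits dock, had 1021 and 1112 in the wild-type libraries against 1044 and 1052 in the knockout libraries. For both genes the groups overlapped. Rbbp4 (gene 19646, chr4:129307100-129335370), a WD40 protein that PRC2 shares with several deacetylase complexes, had 3242 and 3218 in the wild-type libraries against 3017 and 3160 in the knockout libraries, so both knockout values were lower. The deposited log2 fold changes were 0.02 for Eed (95% interval -0.19 to 0.22), -0.02 for Suz12 (-0.20 to 0.15) and -0.06 for Rbbp4 (-0.18 to 0.05), with adjusted p of 0.984, 0.975 and 0.825 in the authors' DESeq2 comparison. Given each gene's standard error, a log2 fold change of 0.30 for Eed, 0.26 for Suz12 and 0.16 for Rbbp4 would have been the smallest to pass.

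Within PRC2.2, Jarid2 passed the test and its partner Aebp2 did not; the difference between them was not tested. Jarid2 (gene 16468, chr13:44730774-44921643), a DNA-binding JmjC-family protein without demethylase activity that helps recruit PRC2 and stimulates it, had 443 and 390 reads in the wild-type libraries against 610 and 581 in the knockout libraries. In normalised reads these were 439.9 and 416.9 against 590.0 and 563.5. Both knockout libraries were above both wild-type libraries, and the gap between genotypes was wider than the spread within either, which was 5.51% in wild type and 4.71% in knockout. The deposited log2 fold change was 0.42 (SE 0.12, 95% interval 0.18 to 0.66), with an adjusted p of 0.00906 in the authors' DESeq2 comparison. In limma on the recovered reads it was 0.43 (SE 0.08, adjusted p = 3.08e-06), and the adjusted p ranged from 3.08e-06 to 0.488 over the alternatives. The highest of these came from adding a 10% coefficient of variation per library, which ended the call, as did requiring a log2 fold change of at least 1.

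Aebp2 (gene 11569, chr6:140622454-140678472), the zinc-finger subunit that binds nucleosomes within the same form, had 2300 and 2202 normalised reads in the wild-type libraries against 2300 and 2311 in the knockout libraries. Library A was just below library C, so the genotypes were separated by almost nothing, and library B was the low value. The deposited log2 fold change was 0.03 (95% interval -0.09 to 0.16; authors' DESeq2 adjusted p = 0.931). Per kb, Jarid2 was at 0.168 and 0.166 times Aebp2 in the wild-type libraries against 0.225 and 0.214 times in the knockout libraries.

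The 3 Polycomb-like genes, whose proteins bind unmethylated CpG DNA and H3K36-methylated histone tails, had differences of unlike sign, and by the deposited test none of them passed. Phf1 (gene 21652, chr17:26933127-26937908) had 341.6 and 357.1 normalised reads in the wild-type libraries against 425.6 and 423.8 in the knockout libraries. The knockout libraries were both higher and lay within 0.421% of each other. The deposited log2 fold change was 0.28 (SE 0.14, 95% interval 0.01 to 0.54), and its unadjusted p of 0.0408 became 0.297 after adjustment over all genes in the authors' DESeq2 comparison. Limma on the recovered reads gave the same 0.28 with an SE of 0.09 and an adjusted p of 0.00773, and the adjusted p ranged from 0.00773 to 1 over the alternatives. The limma call was lost without library A, C or D (adjusted p = 0.092, 0.0681 and 0.0586), each time with the lone library assumed to vary like the others.

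Phf19 (gene 74016, chr2:34893752-34914353) was the least abundant member and the one with the largest difference. It had 137 and 148 reads in the wild-type libraries against 101 and 97 in the knockout libraries, or 136.0 and 158.2 against 97.7 and 94.1 normalised reads. Both knockout values were below both wild-type values, and the wild-type libraries differed by 16.3%. The deposited log2 fold change was -0.59 (SE 0.23, 95% interval -1.04 to -0.13), with an unadjusted p of 0.0122 and an adjusted p of 0.124 in the authors' DESeq2 comparison. At this depth a log2 fold change of 0.68 would have been the smallest to pass. Limma gave -0.61 (SE 0.15, adjusted p = 0.000837), it kept the call without any one library (highest adjusted p = 0.0486, without library B), and the adjusted p ranged from 0.000837 to 0.578 over the alternatives.

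Mtf2 (gene 17765, chr5:108065660-108109219), the third Polycomb-like gene, had 476.6 and 441.5 normalised reads in the wild-type libraries against 442.0 and 452.9 in the knockout libraries. The groups overlapped, with a deposited log2 fold change of -0.04 (95% interval -0.29 to 0.21; authors' DESeq2 adjusted p = 0.973).

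**Figure D3:**
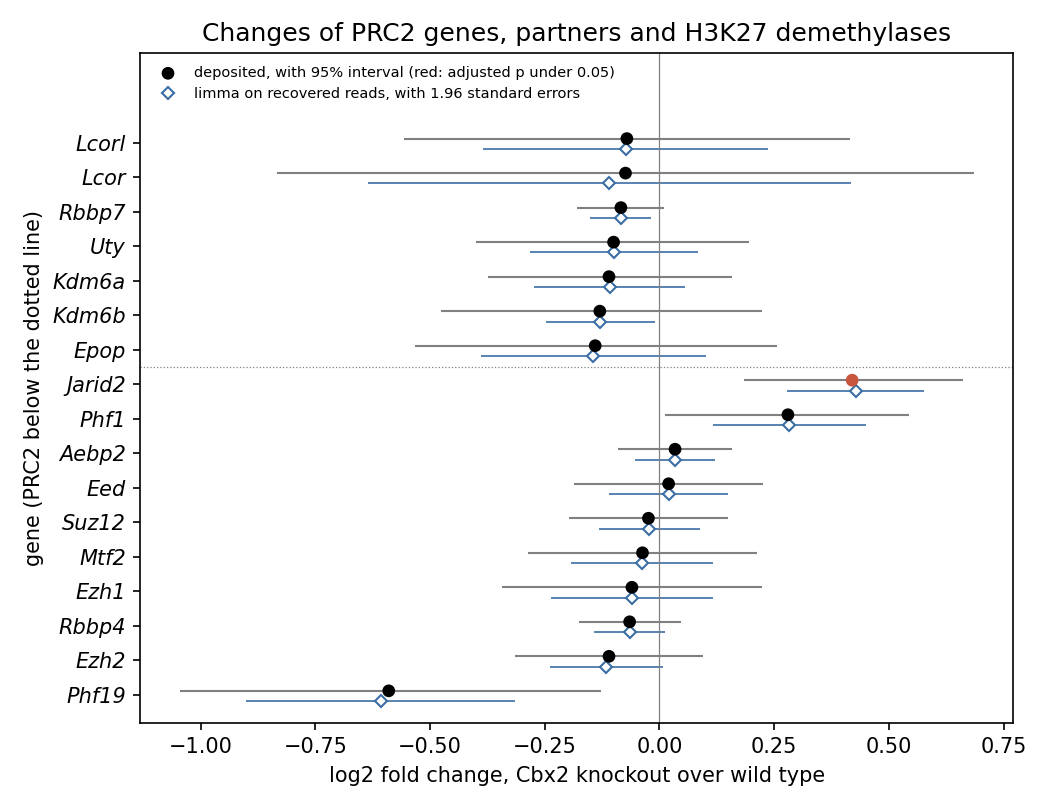
Log2 fold change of knockout over wild type for the 10 PRC2 genes (below the dotted line) and for other PRC2 partners and H3K27 demethylases (above it). Filled points are the deposited values with 95% intervals, red where the adjusted p was under 0.05, and open diamonds are limma on recovered reads, with bars that use the same multiple of the standard error and are narrower in every gene shown.

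Counted over all members, knockout and wild-type libraries did not overlap for 6 genes, 3 with knockout higher (Jarid2, Phf1 and Aebp2) and 3 with knockout lower (Phf19, Ezh1 and Rbbp4). Among all genes with recovered reads the groups did not overlap in 50.9% (26.1% with knockout higher, 24.8% lower), so 6 of 10 is near that background. With values rescaled to equal column sums, a choice added after seeing the data, 4 members were higher without overlap (Eed joined) and 1 lower (Ezh1 and Rbbp4 left), against 33.3% higher, 18.2% lower and 51.5% in all among genes with recovered reads under that scaling.

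With reads divided by the size factors, the summed transcript of the 10 genes was nearly the same in every library while its makeup differed. The sum was 9839, 9810, 9794 and 9828 normalised reads in libraries A to D, a span of 0.469%, and 2497, 2503, 2494 and 2488 per kb. Rbbp4 and Aebp2 contributed most to it. Equal column sums would raise the knockout sums relative to wild type, since the knockout column total was lower (log2 ratio -0.039). That scaling was not applied to these sums. Among the Polycomb-like genes, Phf19 made up 12.8% and 14.7% of the summed per-kb level in wild type and 8.68% and 8.34% in knockout. Phf1 made up 49.2% and 50.7% in the wild-type libraries against 58.0% and 57.6% in the knockout libraries, and Mtf2 the rest. Phf1 was at 3.85 and 3.46 times Phf19 per kb in the wild-type libraries against 6.68 and 6.91 times in the knockout libraries. These ratios, other than that of Ezh2 to Ezh1, were picked after the values were seen and are given without a test.

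**Figure D4:**
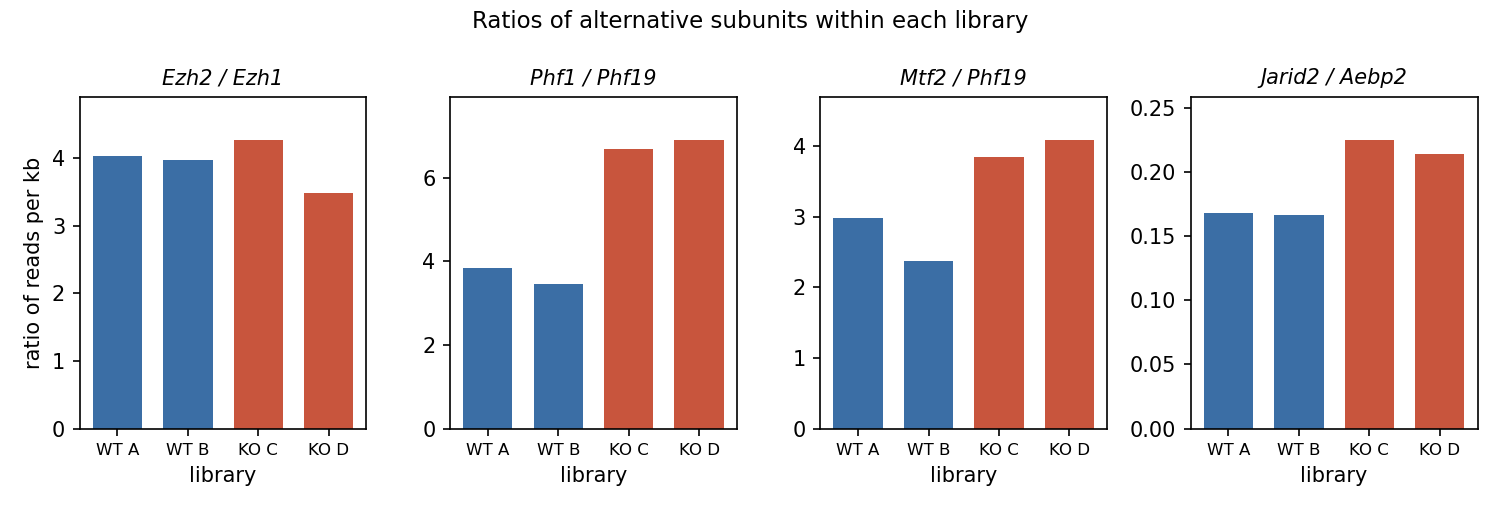
Ratios of normalised reads per kb between alternative subunits, 1 bar per library, blue for wild type (WT) and red for Cbx2 knockout (KO), each panel on its own axis from 0. The ratio of Phf1 to Phf19 was 3.46 to 3.85 in wild type and 6.68 to 6.91 in knockout, while that of Ezh2 to Ezh1 overlapped between genotypes.

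None of the 4 further PRC2 partners analysed and none of the 3 genes of the H3K27 demethylase family, whose enzymes remove the mark, passed the test. Rbbp7, the close relative of Rbbp4, was at 5463 in wild type and 5153 in knockout by the authors' deposited table (log2 fold change -0.08, DESeq2 adjusted p = 0.459), and per kb it was at 3.09 to 3.39 times Rbbp4 in the 4 libraries. How reads shared by the 2 related genes were assigned is not given in the sources used here. Ezhip, also on the list of partners, is not analysed here. Epop, Lcor and Lcorl, whose products join PRC2.1, had deposited log2 fold changes of -0.14, -0.07 and -0.07. The demethylases of H3K27 were Kdm6a, at 411.5 and 381.9 in the authors' deposited table for wild type and knockout, and Kdm6b, at 1184 and 1084. Their Y-linked relative Uty, at 331.6 and 308.8, is counted with the demethylases by family and not by activity. The log2 fold changes of Kdm6a, Kdm6b and Uty in that table were -0.11, -0.13 and -0.10, each with a DESeq2 adjusted p of 0.931. The median over the 4 partners was -0.08 and over the 3 demethylases -0.11, beside 0.0036 over all genes, and 0 of the 7 genes passed the authors' DESeq2 test, 0 had an unadjusted p under 0.05 and 0 passed limma. The authors' deposited table annotates 17 genes to the ESC/E(Z) complex, a Gene Ontology term for PRC2, of which 1 rose (Jarid2) and 3 had an unadjusted p under 0.05, all of them among the 10 members. Among all genes 7.78% passed the authors' DESeq2 test and 14.6% had an unadjusted p under 0.05.

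Genes of neighbouring pathways were counted in lists, against 7.78% of all genes that passed the authors' DESeq2 test. The counts in the lists of this paragraph lie close to that share. Of 26 PRC1 genes, 1 rose and 1 fell, with a median log2 fold change of -0.04. The gene that fell was Cbx2 itself, the deleted gene, so its call was fixed by the design. The gene that rose was Ring1, a PRC1 ubiquitin ligase (deposited log2 fold change 0.76, authors' DESeq2 adjusted p = 4.425e-04). Ring1 had 176 and 158 reads in the wild-type libraries against 321 and 287 in the knockout libraries. Of 11 genes of the polycomb deubiquitinase, which removes the PRC1 mark, 1 passed, the forkhead gene Foxk2, which fell (deposited log2 fold change -0.23, authors' DESeq2 adjusted p = 0.00858). Of 12 genes on a list mainly of H3K36 and H3K4 methyltransferases, whose marks hinder PRC2, 1 passed. It was Nsd2, which fell (-0.22, authors' DESeq2 adjusted p = 0.00993). Of 22 genes of other complexes that hold Rbbp4, 1 passed, the remodeller Chd3, which fell (-0.29, authors' DESeq2 adjusted p = 2.34e-08).

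Of 51 classic polycomb target genes in the table, 7 rose and 12 fell (median log2 fold change -0.11), against 3.48% and 4.3% of all genes. The called targets with the smallest adjusted p changed in both directions. In the authors' deposited table Zic1 rose from 620.7 to 1391 and Zic2 from 145.1 to 372.2, and both encode zinc-finger factors of neural and skeletal patterning. Tbx15 fell from 1400 to 763.7 and Hand2 from 254.6 to 69.9 in the same table, both transcription factors of limb development.

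Of 27 genes of E2F control and proliferation (E2F factors, pocket proteins, replication and mitosis genes), 6 passed and all 6 fell, with a median of -0.11. Among all genes 7.78% passed and 4.3% fell. The 6 that fell included the replication helicase subunit Mcm6 (deposited log2 fold change -0.46), the proliferation marker Mki67 (-0.28) and the cyclins Ccna2 (-0.25) and Ccne2 (-0.47). Ezh2 and Phf19, whose promoters hold an E2F match, had deposited log2 fold changes of -0.11 and -0.59, and Suz12 one of -0.02. The part of proliferation in the values of PRC2 genes was not tested.

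**Figure D5:**
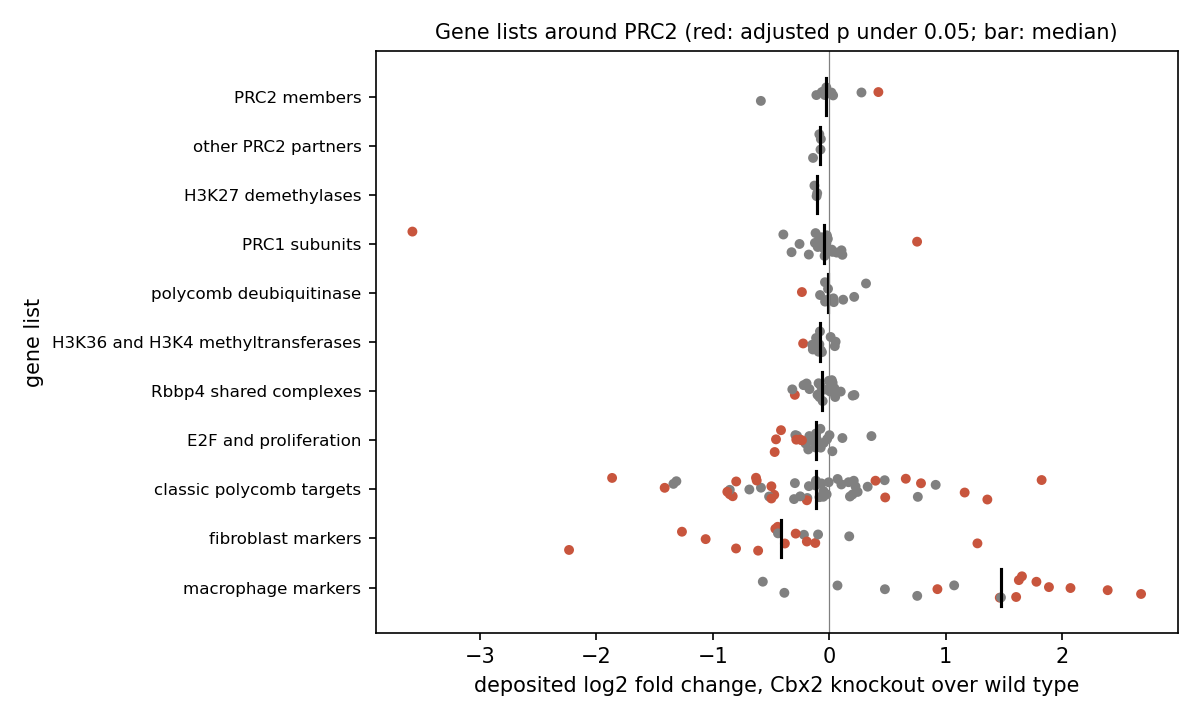
Deposited log2 fold change of each gene (1 point, red where the adjusted p was under 0.05) by list, with the list's median as a black bar and a small vertical scatter for legibility. Apart from Phf19 (-0.59), Jarid2 (0.42) and Phf1 (0.28), the PRC2 genes, their partners and the demethylases lie within 0.14 of 0, polycomb targets spread to both sides, and macrophage markers have a median of 1.48.

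Markers of cell types also moved with genotype, and their counts stand beside 3.48% of all genes that rose and 4.3% that fell. Of 16 fibroblast markers, 1 rose and 11 fell (median log2 fold change -0.41), their deposited values summed to 776913 in wild type and 673460 in knockout, and the authors' deposited table has Postn falling from 39240 to 8337, Dcn from 5774 to 2767 and Col3a1 from 71346 to 54815, with Thy1 rising from 4928 to 11919. Of 17 macrophage markers, 10 passed and all 10 rose, and their summed normalised reads were 623.6 and 721.6 in the wild-type libraries against 2073 and 2042 in the knockout libraries, led by Lyz2 with 146 and 134 reads against 976 and 988. No macrophage marker was at 0 in all libraries. Csf1r did not differ detectably, at 244.6 in wild type and 257 in knockout (deposited log2 fold change 0.072, authors' DESeq2 adjusted p = 0.955). C1qb and Aif1 were lower in knockout without passing (deposited log2 fold changes -0.57 and -0.38). C1qb had 3 and 8 reads in the wild-type libraries against 3 and 1, and Aif1 3 and 3 against 0 and 2. The remaining markers that did not pass had positive log2 fold changes. Endothelial markers summed to 773.5 and 811.4 in the wild-type libraries against 1117 and 1141 in the knockout libraries (2 of 10 rose, 1 fell). The 2 that rose were Esam (35 and 27 reads against 310 and 297) and Cdh5 (63 and 50 against 346 and 330). Flt1 fell from 539.8 to 369.5 in the authors' deposited table, and no other endothelial marker passed. Epithelial markers fell in 2 of 9, muscle markers summed to 3585 and 3652 against 1634 and 1669 (2 of 8 fell, Des and Acta1), and neural markers fell in 1 of 8. In bulk RNA, fewer cells of a type and less RNA per cell cannot be told apart. The part of these marker differences in the values of Jarid2, Phf1 and Phf19 was not tested.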

How the data were processed

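RNA of 4 libraries, 2 wild type and 2 Cbx2-/-, was grouped by the genotype in the labels. The 2 expression columns hold a normalised read signal, 1 value per genotype, deposited by the authors. The tools named in the submitters' processing notes are RSEM, HISAT2, DESeq2 and Bowtie2, with mm10 as the genome; which step each served, and its version, is not given in the sources used here. Fold changes on the log2 scale, deposited by the authors, equal the log2 ratio of those columns and are shrunken toward 0, and the p-values and adjusted p-values deposited by the authors come from their DESeq2 comparison. A gene was called at a deposited adjusted p under 0.05. Count tables per library were planned for, and since the table holds values per genotype the deposited test was used. Standard errors were implied from the fold change and the p-value.

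Averaged, both columns give whole reads weighted by a constant for each library (size factors 1.01, 0.935, 1.03 and 1.03). A gene with 1 read set matching that mean kept it; among several sets, each was refitted with a shrunken negative binomial model and the one giving the deposited fold change was kept. This recovered 16423 of 16597 genes searched and all 10 members, whose refitted log2 fold changes were within 1e-07. Of all genes recovered 90.3% were within 1e-06, and 1592 of the other 1595 had 1 set matching the mean (median value 0.267). Recovery was checked on simulated data. Reads entered limma 3.58.1 with voom (R 4.3.3) for genes with a mean of at least 10. Alternatives covered thresholds, filters, scaling, an added 10% coefficient of variation and leaving out each library. Promoter windows and gene coordinates come from RefSeq (GRCm38.p6). Gene identifiers were matched in 17400 of 17441 cases.

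The members and the lists were chosen with earlier results of these data known. Genes named are the members, Cbx2, all partners and demethylases listed, and up to 4 called genes with the smallest adjusted p of each other list. Csf1r, C1qb and Aif1 were named after their values were seen. Some markers are given by their sums only. Python 3.11.15, numpy 2.4.6, pandas 2.3.3, scipy 1.17.1 and matplotlib 3.10.9 were used.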

Additional observations from a re-analysis of the deposited data

How the results depend on the processing

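Of the 129 values of single members under the alternatives, 111 kept both direction and side of the threshold, 2 lost the call, 10 gained it and 6 changed sign. Stricter thresholds and added variation could not change a sign or add a call, so part of the 111 was fixed in advance and does not measure stability. The members called went from 1 to 0 with a log2 fold change of at least 1 required or with 10% coefficient of variation added, to 3 with limma on recovered reads (3 without its filter), and lay between 2 and 3 when limma left out 1 library. All genes called went from 1357 to 294, 425, 2896 and 2314 in the same order, and ranged from 1840 to 2064 when limma left out 1 library. With equal column sums 763 genes were higher and 566 lower, against 607 and 750. Requiring a log2 fold change of at least 1 ended the call of Jarid2 by construction. Adding variation can only weaken a call. It ended that of Jarid2 (adjusted p = 0.488 by the deposited test with the standard error widened), while 425 of all genes stayed called. Leaving out 1 library took limma's value across 0 for Ezh2 (-0.24 to 0.0088), Eed (-0.0032 to 0.043), Suz12 (-0.085 to 0.038) and Mtf2 (-0.091 to 0.019), with the sign reversed without D, D, B and A, and signs also changed with equal column sums for Suz12 (0.015) and Mtf2 (0.002). The cause was not tested. The difference of Ezh2 and Ezh1 was -0.05 as deposited and -0.055 from read ratios, which gave -0.2 to 0.093 when 1 library was left out, a choice added after seeing the data, with the sign reversed without D. Phf19 has no value with the filter at the median, being below it. No paired analysis was possible because the table carries no replicate numbers. The planned edgeR and DESeq2 fits on recovered reads were not run. Depth limits Phf19 most, with 97 to 148 reads per library.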
